A study of Homo sapiens with 4 samples.

Results

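The genes described here are 29 protein-coding genes of cholesterol synthesis and sterol regulation, taken by name from the 58735 genes of a count table, of which 19951 are protein-coding. They comprise 8 enzymes of the mevalonate and isoprenoid route, 12 enzymes that lead from squalene to cholesterol, 6 regulators and carriers around the sterol regulatory element binding proteins (SREBPs), and 3 genes switched on by the liver X receptors (LXRs). Cholesterol is built from acetyl-CoA through mevalonate, isoprenoid diphosphates and squalene, and growing cells need it for their membranes. When sterols in the endoplasmic reticulum fall, SCAP escorts SREBPs to the Golgi, where they are cut to release transcription factors. INSIG proteins hold the SCAP complex back when sterols are plentiful, and LXRs, nuclear receptors for oxidised sterols, turn on genes of cholesterol export and the gene SREBF1.

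RNA came from HCC1954 cells, an established human breast cancer line with amplified ERBB2 (HER2). The 2 control samples (shCON) carried a scrambled short hairpin RNA, and the 2 shZDHHC15 samples carried a hairpin against ZDHHC15, an enzyme that attaches palmitate to proteins. All 4 samples were grown in the same medium with fetal bovine serum, and the hairpins came as lentiviral GIPZ plasmids. The labels describe the knockdown as stable in one place and as a transient transfection in another, and whether the numbers 1 and 2 stand for cultures, clones or hairpins is not given in the sources used here. The p-values therefore measure only the spread between these samples, which may be technical. The comparison asks how the RNA of these genes differed between ZDHHC15 knockdown and control cells.

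The samples held between 17560982 and 19118704 counts, and ZDHHC15 itself had 17617 and 15716 counts in shCON and 0 counts in both shZDHHC15 samples, at least 6045-fold lower against a floor of 3 counts in each library. A hairpin commonly leaves part of its target transcript, and why no read was counted here was not tested. In the deposited counts, all 7 markers of the epithelial, HER2-amplified line were detected, with a summed level of 16549 and 17883 normalized counts (CPM, counts scaled to a common effective library size) in shCON and 9474 and 9621 CPM in shZDHHC15. The ratio of means, shZDHHC15 over shCON, was 0.325 for KRT8, 0.334 for KRT18 and 0.504 for KRT7. It was 0.784 for EPCAM, 0.847 for ERBB2, 0.968 for CDH1 and 1.36 for KRT19. The summed endothelial markers lay at 48.4 and 50.0 CPM in shCON and at 102 and 96.7 CPM in shZDHHC15, with VWF at 0 to 7 counts. PECAM1 had 75 and 56 counts in shCON and 666 and 405 in shZDHHC15. CDH5 had 807 and 780 counts in shCON and 1224 and 1487 in shZDHHC15. Leukocyte markers summed to 3 to 10 counts, with CD3E at 0, and fibroblast markers to 101 to 215 counts, nearly all COL1A1, with LUM at 0. The hormone receptor genes ESR1 and PGR summed to 103 to 162 counts in shCON and 305 to 308 counts in shZDHHC15. The part of these shifts in the results for the sterol genes was not tested. In bulk samples fewer cells with a transcript and less RNA per cell cannot be told apart.

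In shZDHHC15, SREBF1, SREBF2, INSIG1 and STARD4, 7 of the 20 enzymes and the LXR targets ABCA1 and MYLIP were higher than in shCON, while the enzymes ACAT2, PMVK and LBR were lower. All 29 genes passed the filter on low counts, ABCA1 only through its shZDHHC15 samples. A gene is called when its p from edgeR's quasi-likelihood test, adjusted by Benjamini-Hochberg over all 15817 genes tested, is under 0.05. By this rule 13 of the 29 genes were higher, 3 lower and 13 did not pass. The 13 include ABCA1, whose call is a description, since it passed the filter only through the group where it was high. Over all genes tested, 21.7% were called higher and 20.3% lower, and among the 9223 genes averaging 200 counts or more 25.1% were called higher and 27.3% lower. Of the 26 sterol genes at that level, 11 rose and 3 fell. For the 29 genes the log2 fold change had a median of 0.27, with quartiles of -0.02 and 0.68, against 0.02 with quartiles of -0.33 and 0.41 over all genes tested. These are descriptions of a list chosen by function. Of its 16 called genes, 4 changed by more than 1 on the log2 scale, namely ABCA1, STARD4, SREBF1 and MYLIP. Over all genes tested the same held for 1787 of the 6644 called, a similar share. In 21 of the 29 genes the fold change was positive, beside 8093 of the 15817 genes tested. At 200 counts or more it was positive in 19 of the 26 sterol genes and in 4468 of all 9223. Groups without overlap are mentioned below as a description, since with 2 against 2 samples they reach a two-sided permutation p of only 0.333. Among genes not called, HMGCS1, MVK, MVD and DHCR7 were also higher without overlap, and EBP and SCAP lower without overlap. The share of genes without overlap among all genes tested was not counted.

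**Figure D1:**
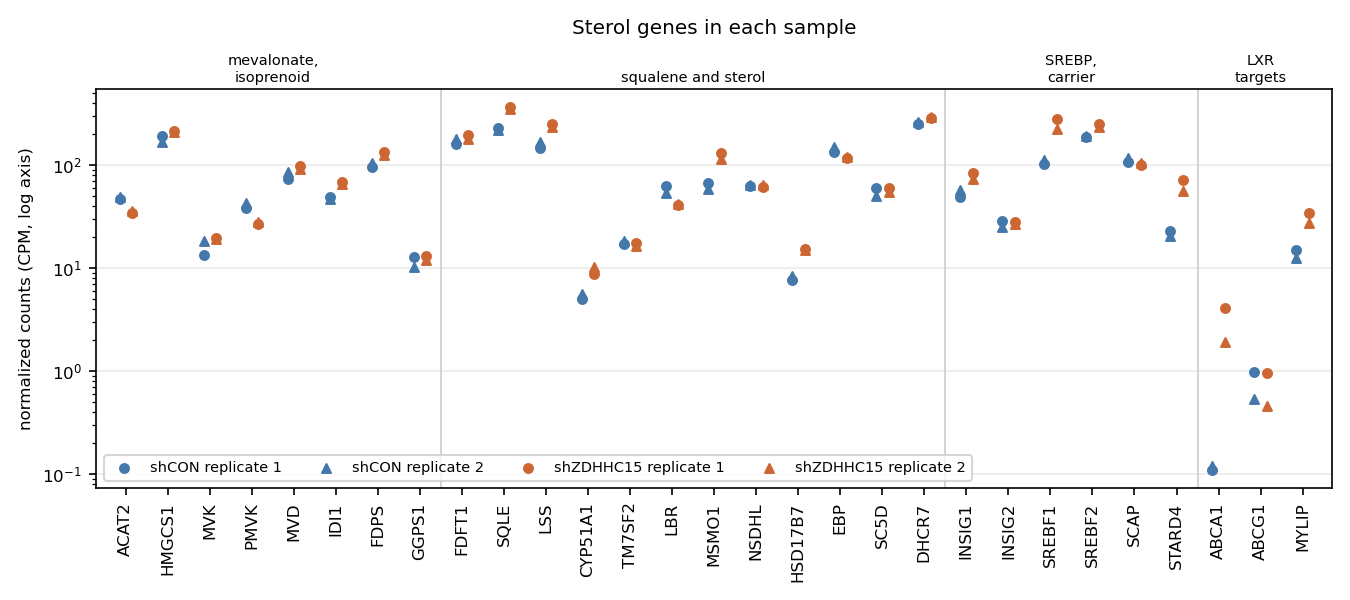
Normalized counts (CPM on a log axis) of the 29 genes in pathway order, with blue symbols for the 2 shCON samples and orange symbols for the 2 shZDHHC15 samples, circles for replicate 1 and triangles for replicate 2. In the 13 genes called higher both orange symbols lie above both blue ones, as they also do in HMGCS1, MVK, MVD and DHCR7, which were not called. How many of all genes tested show no overlap was not counted. ABCA1 shows the widest gap, with shCON at 2 counts in each sample.

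Summed over all 29 genes, the level was 2239 and 2306 CPM in shCON and 3035 and 2846 CPM in shZDHHC15, a ratio of 1.29. The ratio of the summed levels was 1.14 for the mevalonate and isoprenoid enzymes, 1.25 for the squalene and sterol enzymes, 1.51 for the SREBP regulators with the carrier STARD4, and 2.36 for the LXR targets. Per kilobase of exon, the mean level in shCON was highest for DHCR7 (61.5 CPM per kb), EBP (58.6 CPM per kb) and SQLE (52.4 CPM per kb). In shZDHHC15 the order of these 3 levels was SQLE, DHCR7 and EBP, at 84, 70.1 and 49.7 CPM per kb. ABCA1 and ABCG1 were the lowest per kilobase in both groups, at 0.0101 and 0.124 CPM per kb in shCON and 0.265 and 0.116 CPM per kb in shZDHHC15. MSMO1 moved from rank 10 to rank 5 of the 29 genes on that scale.

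Of the 8 enzymes of the mevalonate and isoprenoid route, 2 rose, 2 fell and 4 did not pass the test, with a median log2 fold change of 0.25. These shares of 25% and 25% are close to the 21.7% higher and 20.3% lower over all genes tested. At 200 counts or more the shares over all genes were 25.1% and 27.3%. IDI1, which interconverts the isoprenoid building blocks (GRCh38 chr10:1039152-1049170), was at 48.9 and 47 CPM in shCON and 69.1 and 65 CPM in shZDHHC15, so that both knockdown samples lay above both controls. Its log2 fold change was 0.48 ± 0.10 (SE, n = 2 per group, adjusted p = 0.00175) in the edgeR fit, from which every adjusted p here comes. FDPS, the farnesyl diphosphate synthase (chr1:155308748-155320666), was at 96.2 and 106 CPM in shCON and 136 and 126 CPM in shZDHHC15. The groups of FDPS did not overlap either, at a log2 fold change of 0.38 ± 0.10 (SE, n = 2 per group, adjusted p = 0.00658), and without shZDHHC15 replicate 1 its adjusted p was 0.0905 at a log2 fold change of 0.32. Its exons share 693 bases with the antisense gene RUSC1-AS1, which had 86 and 74 counts in shCON and 139 and 192 in shZDHHC15.

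PMVK, which phosphorylates phosphomevalonate (chr1:154924734-154936991), was at 38.1 and 43.4 CPM in shCON and 26.7 and 27.9 CPM in shZDHHC15. Here the knockdown samples were the low ones, without overlap, and the log2 fold change was -0.58 ± 0.12 (SE, n = 2 per group, adjusted p = 0.00133). ACAT2, the cytosolic thiolase that joins acetyl-CoA units at the head of the route, was at 47.2 and 49.4 CPM in shCON and 34.7 and 36 CPM in shZDHHC15. Both knockdown values lay below both controls, at a log2 fold change of -0.45 ± 0.11 (SE, n = 2 per group, adjusted p = 0.00411). ACAT2 overlaps TCP1, SOD2 and SOD2-OT1 on the opposite strand, and where counting ignores strand their reads cannot be told apart. Among the 4 other enzymes HMGCS1, which makes the intermediate HMG-CoA, had a log2 fold change of 0.24 (adjusted p = 0.0534). MVD, the decarboxylase, had 0.27 (adjusted p = 0.0568) and MVK, the mevalonate kinase, had 0.28 (adjusted p = 0.173). For MVK the difference was smaller than the gap between the shCON samples, which were at 13.4 and 18.6 CPM. GGPS1, the geranylgeranyl diphosphate synthase, was at 0.12 (adjusted p = 0.594), and 37.3% of its exon bases lie in TBCE on the same strand. Leaving out 1 control brought 3 of these past the threshold, HMGCS1 at 0.30 without shCON replicate 1 (adjusted p = 0.0148), and MVD at 0.37 (adjusted p = 0.00557) and MVK at 0.52 (adjusted p = 0.0112) without shCON replicate 2. Leaving out the other control moved them the opposite way, to 0.14 for HMGCS1 (adjusted p = 0.302) without shCON replicate 2, and to 0.12 for MVD (adjusted p = 0.408) and 0.03 for MVK (adjusted p = 0.91) without shCON replicate 1.

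From squalene synthesis onward, 5 of the 12 enzymes rose, 1 fell and 6 did not pass the test, and the median log2 fold change was 0.17. The shares were 41.7% higher and 8.33% lower, beside 21.7% and 20.3% over all genes tested. MSMO1, the methylsterol monooxygenase that starts the removal of methyl groups from the sterol ring (chr4:165327623-165343160), was at 67.4 and 58.8 CPM in shCON and 133 and 116 CPM in shZDHHC15. Both knockdown samples stood above both controls, with means in a ratio of 1.97, and the log2 fold change was 0.98 ± 0.11 (SE, n = 2 per group, adjusted p = 6.23e-06). HSD17B7, a ketosteroid reductase of the same demethylation (chr1:162790702-162812817), was at 7.62 and 8.3 CPM in shCON and 15.3 and 14.9 CPM in shZDHHC15. Its groups did not overlap and it changed by 0.93 ± 0.16 (SE, n = 2 per group, adjusted p = 0.000298) on the log2 scale, while its near copies HSD17B7P2 and AL117339.5 had 0 counts in every sample. CYP51A1, the lanosterol demethylase, was at 4.99 and 5.63 CPM in shCON and 8.75 and 10.2 CPM in shZDHHC15. That is a log2 fold change of 0.84 ± 0.19 (SE, n = 2 per group, adjusted p = 0.00264) without overlap. In the annotation, 79.4% of CYP51A1 exon bases also belong to AC000120.2 on the same strand, which had 0 counts in every sample, and its pseudogenes CYP51A1P1 and CYP51A1P2 had 1 to 9 counts, so the assignment of its reads is uncertain.

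SQLE, the squalene epoxidase that commits squalene to sterols, was at 229 and 222 CPM in shCON and 369.8 and 353 CPM in shZDHHC15. The samples of each group lay close together for SQLE and the groups did not overlap, with a log2 fold change of 0.68 ± 0.09 (SE, n = 2 per group, adjusted p = 2.53e-05). LSS, which closes the ring to lanosterol (chr21:46188141-46228824), was at 149 and 167 CPM in shCON and 251 and 238 CPM in shZDHHC15. Again both knockdown samples were above both controls, by 0.63 ± 0.09 (SE, n = 2 per group, adjusted p = 9.54e-05) on the log2 scale. LBR, a sterol reductase that is also the lamin B receptor of the nuclear envelope (chr1:225401502-225428925), was the enzyme that fell, from 63.2 and 54.1 CPM in shCON to 41 and 41.6 CPM in shZDHHC15. Its groups were apart as well, at -0.51 ± 0.11 (SE, n = 2 per group, adjusted p = 0.00218). TM7SF2, the other reductase of this step, had a log2 fold change of -0.06 (adjusted p = 0.747).

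The enzymes of this stretch that did not pass the test ranged from -0.24 for EBP, the sterol isomerase (adjusted p = 0.0619), to 0.19 for DHCR7, the reductase that ends the route through dehydrocholesterol (adjusted p = 0.097). FDFT1, the squalene synthase, had a log2 fold change of 0.14 (adjusted p = 0.256), SC5D, the sterol desaturase, 0.04 (adjusted p = 0.795), and NSDHL, the sterol dehydrogenase, -0.02 (adjusted p = 0.899). Without shCON replicate 1, EBP was at -0.34 and passed (adjusted p = 0.00455), and without shCON replicate 2 it was at -0.17 (adjusted p = 0.243). NSDHL was at 62.9 and 64 CPM in shCON and 61.3 and 63.8 CPM in shZDHHC15, and the samples of the groups overlapped. Along the route the called rises therefore stood at IDI1, FDPS, SQLE, LSS, CYP51A1, MSMO1 and HSD17B7, with called falls at ACAT2, PMVK and LBR. Whether any enzyme differed from its neighbours in fold change was not tested.

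**Figure D2:**
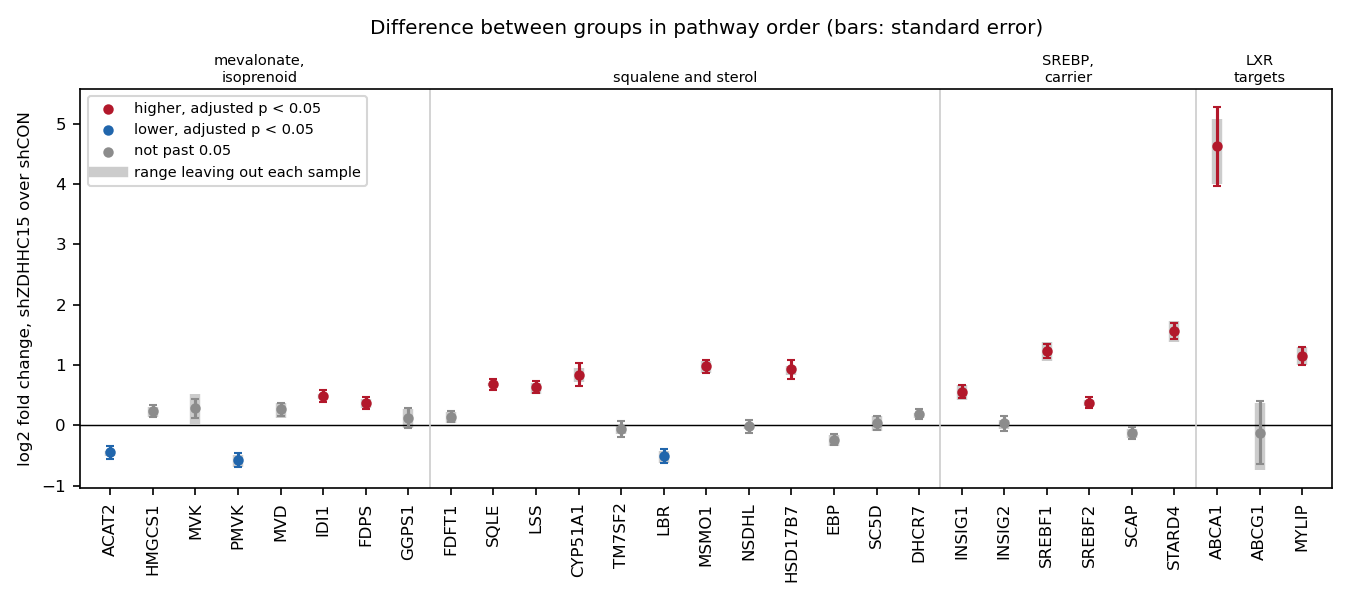
Log2 fold change of shZDHHC15 over shCON for each gene in pathway order, with bars for the standard error of the edgeR fit and grey bands for the range when each sample is left out in turn. Red points (13 genes) are higher and blue points (3 genes) lower at an adjusted p under 0.05, and grey points do not pass.

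To show what the sequence before the start of the enzymes with the largest rises holds, the stretches around the CCAAT boxes of MSMO1 and HSD17B7 are printed from the RefSeq promoter table (GRCh38.p14), read in the direction of the gene. CCAAT is a box bound by the factor NF-Y, which is known to act together with SREBPs at sterol genes. Capitals mark CCAAT on either strand, which reads ATTGG where it lies on the opposite one, and positions are counted back from the RefSeq start, with -1 for the base before it. The MSMO1 stretch is chr4:165327454-165327668, plus strand, and the HSD17B7 stretch is chr1:162790620-162790684, plus strand.
MSMO1: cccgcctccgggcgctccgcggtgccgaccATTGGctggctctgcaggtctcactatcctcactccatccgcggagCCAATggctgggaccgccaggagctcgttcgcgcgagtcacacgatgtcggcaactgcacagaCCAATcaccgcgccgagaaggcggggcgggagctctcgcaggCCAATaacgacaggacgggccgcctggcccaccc
HSD17B7: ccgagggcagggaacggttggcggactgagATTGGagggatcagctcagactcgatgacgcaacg
MSMO1 holds 4 CCAAT boxes between bases -185 and -30 from the start, and HSD17B7 holds 1 at bases -52 to -48. CYP51A1, the enzyme with the next largest rise, holds a GC box in its window and no CCAAT.

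In the set of 6 genes made of the SREBP regulators and the carrier STARD4, 4 rose and 2 did not pass the test, with a median log2 fold change of 0.47. The share of rises was 66.7%, beside 21.7% over all genes tested. SREBF1 encodes SREBP-1, the form mainly linked to fatty acid synthesis (chr17:17810399-17837002), and was at 103 and 113 CPM in shCON and 281 and 227 CPM in shZDHHC15. Both knockdown samples lay above both controls, with means in a ratio of 2.35, with replicate 1 above replicate 2, and the log2 fold change was 1.23 ± 0.11 (SE, n = 2 per group, adjusted p = 6.82e-07). The table gives 1 value for the gene, so the SREBP-1a and SREBP-1c transcripts cannot be told apart. RAI1 shares 556 exon bases with SREBF1 on the opposite strand and had 1647 and 1555 counts in shCON and 2863 and 2611 in shZDHHC15. SREBF2 encodes SREBP-2, the main activator of the cholesterol enzymes (chr22:41833079-41907308), and was at 186 and 191 CPM in shCON and 254 and 236 CPM in shZDHHC15. Its groups did not overlap and the log2 fold change was 0.38 ± 0.09 (SE, n = 2 per group, adjusted p = 0.00393), but without shZDHHC15 replicate 1 the adjusted p was 0.0799 at a log2 fold change of 0.32.

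STARD4, a soluble protein that carries cholesterol between membranes (chr5:111496033-111512590), was at 23 and 20.4 CPM in shCON and 72.1 and 56.7 CPM in shZDHHC15. Replicate 1 of shZDHHC15 was again the higher, no sample of one group reached the other, and the log2 fold change was 1.57 ± 0.13 (SE, n = 2 per group, adjusted p = 4.2e-07), the largest in this group. INSIG1, whose protein holds the SCAP complex back when sterols are plentiful (chr7:155297776-155310235), was at 49.3 and 57.7 CPM in shCON and 83.3 and 74.2 CPM in shZDHHC15. That is a log2 fold change of 0.56 ± 0.11 (SE, n = 2 per group, adjusted p = 0.00108) without overlap. INSIG2, its relative, had 0.03 (adjusted p = 0.869) and SCAP, the escort, had -0.12 (adjusted p = 0.333). SCAP was at 107 and 117 CPM in shCON and 100.5 and 105 CPM in shZDHHC15, and INSIG2 at 28.5 and 25.4 CPM in shCON and 28.4 and 26.7 CPM in shZDHHC15. Of the 13 genes called higher, 12 were higher in replicate 1 than in replicate 2 of shZDHHC15, beside 73.3% of all genes called higher in these samples. In shCON 5 of the 13 (38.5%) were higher in replicate 1, beside 63.9% of all genes called higher.

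**Figure D3:**
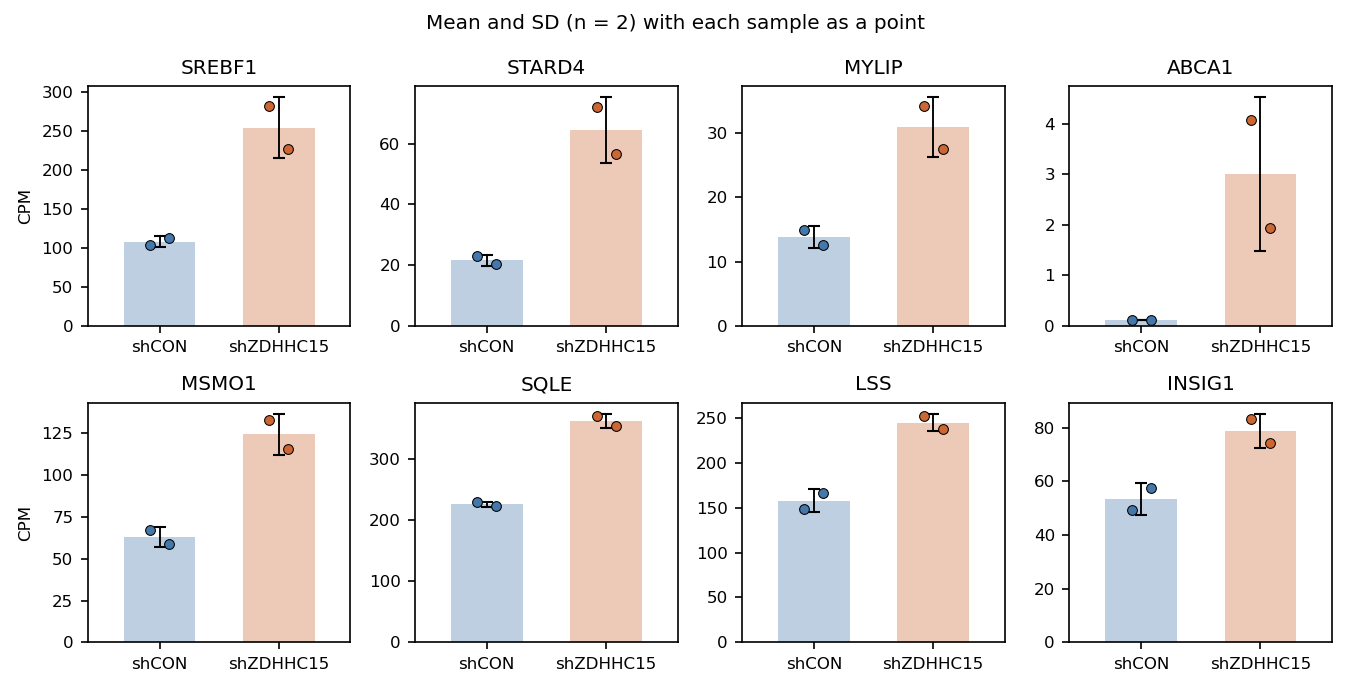
CPM of 8 genes called higher, with each of the 2 samples per group as a point, bars for the mean and black error bars for the SD (each panel has its own axis from 0). The shZDHHC15 points stand above the shCON points in every panel, and the SD of shZDHHC15 is widest relative to its mean for ABCA1.

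The stretches before the starts of STARD4, INSIG1 and SREBF2 are shown as genes of this set that rose and hold a CCAAT box, an E-box or the sterol element, with capitals for CCAAT and, in INSIG1, for the E-box CACGTG. In SREBF2 the capitals mark the form TCACNCCAC of the sterol regulatory element, where SREBPs can bind. The STARD4 stretch is chr5:111512631-111512726, minus strand, that of INSIG1 chr7:155297678-155297858, plus strand, and that of SREBF2 chr22:41832942-41833010, plus strand.
STARD4: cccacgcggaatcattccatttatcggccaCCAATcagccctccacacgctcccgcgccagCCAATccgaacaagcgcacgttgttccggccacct
INSIG1: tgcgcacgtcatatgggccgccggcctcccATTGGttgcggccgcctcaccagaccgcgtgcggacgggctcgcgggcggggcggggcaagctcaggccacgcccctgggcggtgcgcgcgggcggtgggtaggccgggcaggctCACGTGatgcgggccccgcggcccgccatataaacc
SREBF2: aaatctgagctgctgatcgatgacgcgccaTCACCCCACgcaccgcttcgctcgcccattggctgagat
STARD4 holds 2 CCAAT boxes at bases -161 and -130, INSIG1 has its CCAAT at -170 and its E-box at -55, and the SREBF2 element spans bases -133 to -125. A CCAAT on the opposite strand also starts at base -106 of SREBF2, in lower case above. SREBF1, which rose more than INSIG1 and SREBF2, holds GC boxes (GGGCGG) in this window and none of the other motifs searched. A match describes the letters only.

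Of the 3 LXR targets, 2 were called higher (66.7%, beside 21.7% over all genes tested). The 2 include ABCA1, admitted only through the group where it was high, so this share describes the set and does not test it. MYLIP, a ubiquitin ligase that limits the uptake of lipoproteins (chr6:16129125-16148248), was at 15 and 12.6 CPM in shCON and 34.2 and 27.6 CPM in shZDHHC15. Both knockdown samples were above both controls, with a log2 fold change of 1.16 ± 0.15 (SE, n = 2 per group, adjusted p = 2.35e-05). ABCA1, the transporter that moves cholesterol out of the cell to apolipoproteins (chr9:104781002-104928237), had 2 and 2 counts in shCON and 76 and 38 counts in shZDHHC15. The 4 counts in shCON against 114 in shZDHHC15 give a ratio per effective library of 26.2, with an exact 95% counting interval of 9.94 to 97.6 that leaves out the spread between samples. ABCA1 passed the filter on low counts only through the shZDHHC15 samples, the group where it was high. Its adjusted p of 5.2e-05 in the fit is therefore given as a description. The fitted log2 value of 4.63 depends on the prior count and is no bound. That fitted value was 4.01 without shZDHHC15 replicate 1 and 5.07 without shZDHHC15 replicate 2. ABCG1, a related exporter, had 18 and 9 counts in shCON and 18 and 9 counts in shZDHHC15, a log2 fold change of -0.12 (adjusted p = 0.877), and the depth at 9 to 18 counts leaves a standard error of 0.52.

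For these genes, ABCA1 is shown with the repeat AGGTNA, 4 bases, NGGTCA, the kind of repeat that LXRs bind, in capitals on the opposite strand, and MYLIP with its CCAAT boxes in capitals. The stretch of ABCA1 is chr9:104928179-104928254, minus strand, and that of MYLIP is chr6:16128947-16129052, plus strand.
ABCA1: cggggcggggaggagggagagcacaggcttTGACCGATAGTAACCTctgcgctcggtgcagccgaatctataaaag
MYLIP: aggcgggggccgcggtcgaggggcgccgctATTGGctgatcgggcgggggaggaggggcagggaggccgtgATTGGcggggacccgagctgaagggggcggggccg
In ABCA1 the repeat lies at bases -69 to -54. It occurs before 28 of the 27305 genes with an entry (0.1025%) and before 10 of the 10740 tested genes with one (0.0931%). Among the 25 sterol genes with an entry it occurs before 1. The pattern leaves a base free in each arm, where the ABCA1 repeat reads T and C. It may have been written with that repeat in view, so neither the match nor its rarity is evidence about ABCA1. MYLIP holds 2 CCAAT boxes, at bases -109 and -68, and no such repeat in these 250 bases.

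Of the 29 genes, 25 had a promoter entry, with 33 windows in all, and each motif was counted on both strands in the 250 bases before the start. The GC box GGGCGG stood before 23 of the 25 genes (92%), beside 73.5% of all tested genes with an entry and 46.2% of all genes with one. CCAAT stood before 18 of the 25 (72%), beside 41.2% of the tested and 37% of all genes. It was before 9 of the 12 genes called higher with an entry, 9 of the 11 not called, and 0 of the 2 called lower. CACGTG was found before 4 of 25 (16%), beside 11.3% of the tested genes. These were ABCA1 and INSIG1 of the 12 called higher and SC5D and SCAP of the 11 not called. TCACNCCAC was found before SREBF2 as the 1 case (4%), beside 1.21% of the tested genes and 1.09% of all genes. The 12 called-higher genes with an entry all had a GC box, and so did 10 of the 11 not called. No test was made of these shares.

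**Figure D4:**
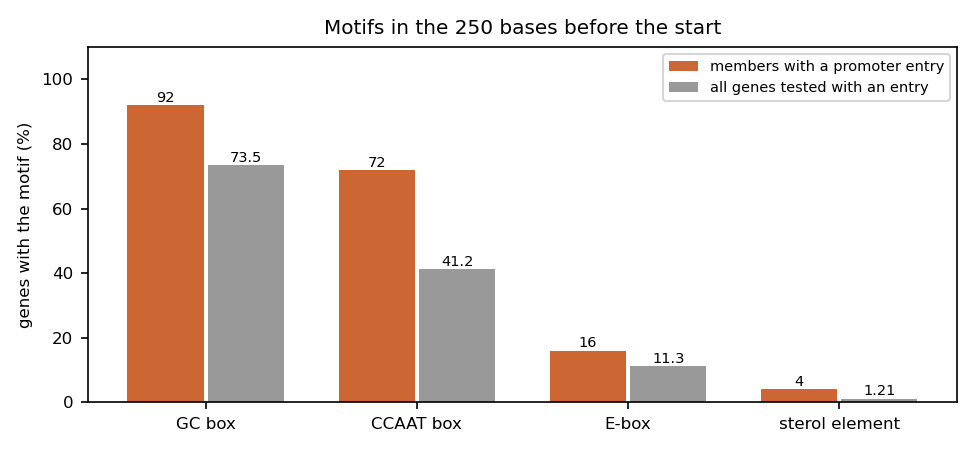
Share of genes (%) with the GC box, the CCAAT box, the E-box and the sterol element form in the 250 bases before the start, for the 25 sterol genes with a promoter entry (orange) and for all tested genes with one (grey). The CCAAT box stands at 72% against 41.2% and the GC box at 92% against 73.5%.

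Other genes of the pathway were taken from lists chosen by function, and the genes named from them, beyond the largest rise and fall of each list and CH25H, NR1H2 and NR1H3, were named after their values were seen. Of 10 genes of SREBP processing and sterol-regulated degradation, 2 rose and 3 fell (20% and 30%), close to the 21.7% and 20.3% over all genes tested and the 25.1% and 27.3% at 200 counts or more, with a median of 0.09. SYVN1, an endoplasmic reticulum ubiquitin ligase, had the largest rise at 0.50 ± 0.09 (SE, n = 2 per group, adjusted p = 0.000606) and was at 1685 and 1611 counts in shCON and 2436 and 2664 counts in shZDHHC15. AUP1, a protein of lipid droplets and of protein degradation, had the largest fall at -0.60 ± 0.10 (SE, n = 2 per group, adjusted p = 0.000219), from 3684 and 3766 counts to 2466 and 2920 counts. ERLIN1 was called higher at 0.41, and the protease MBTPS1, which cuts SREBPs in the Golgi, was called lower at -0.38. The branches that use isoprenoids for other products than sterols gave 1 rise and 5 falls among 13 genes (7.69% and 38.5%), with a median of -0.17. NUS1, a subunit of the enzyme that makes dolichol precursors, fell most, from 1298 and 1069 counts to 574 and 655 counts at -1.07 ± 0.11 (SE, n = 2 per group, adjusted p = 3.49e-06). FNTA, the farnesyltransferase subunit, was the gene that rose, at 0.33 ± 0.10 (SE, n = 2 per group, adjusted p = 0.0178), and RCE1, COQ2, PDSS2 and RABGGTA were the other falls, between -0.63 and -0.45. Calls were lost without 1 sample for MBTPS1 (-0.35 without shZDHHC15 replicate 2), ERLIN1 (0.26 without shCON replicate 2 and 0.35 without shZDHHC15 replicate 2), FNTA (0.23 without shCON replicate 2 and 0.26 without shZDHHC15 replicate 1), PDSS2 (-0.49 without shZDHHC15 replicate 2) and RABGGTA (-0.33 without shZDHHC15 replicate 1).

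Around LXR, 7 of 10 genes could be tested, of which 3 rose and 1 fell (42.9% and 14.3%, beside 21.7% and 20.3% over all genes tested), with a median of 0.23. RXRA, the partner receptor of LXRs, rose most, from 1601 and 1593 counts to 3215 and 2859 counts at 0.80 ± 0.11 (SE, n = 2 per group, adjusted p = 2.84e-05). LPCAT3 and SMPDL3A, both known LXR targets, were called higher at 0.75 and 0.58. NR1H2, which encodes LXR-beta, fell, with 2188 and 2238 counts in shCON and 1922 and 2100 counts in shZDHHC15 and a log2 fold change of -0.27 ± 0.10 (SE, n = 2 per group, adjusted p = 0.039). NR1H3, which encodes LXR-alpha, had 161 and 178 counts in shCON and 122 and 145 counts in shZDHHC15 and did not pass, at a log2 fold change of -0.47 (adjusted p = 0.05003). Without shCON replicate 1 NR1H3 passed, at -0.63 (adjusted p = 0.0138), while it was at -0.35 without shCON replicate 2 (adjusted p = 0.238), -0.39 without shZDHHC15 replicate 1 (adjusted p = 0.227) and -0.57 without shZDHHC15 replicate 2 (adjusted p = 0.063). NR1H2 lost its call without shCON replicate 2 (-0.20) and without shZDHHC15 replicate 1 (-0.24) or 2 (-0.30), and SMPDL3A lost it without any 1 of the 4 samples, at 0.49 to 0.64. CH25H, which makes an oxysterol, had 0 counts in all 4 samples, each allowing up to 3 counts, and CYP27A1 and CYP7B1 were too low to test, at 1 to 10 and 0 to 2 counts.

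Of 12 sterol transport genes, 4 rose and 2 fell (33.3% and 16.7%, beside 21.7% and 20.3% over all genes tested), with a median of 0.19. The 4 rises became 2 with DESeq2's Wald test, with no filter on low counts and with glmTreat, and 6 with library size only. GRAMD1C, a sterol carrier at membrane contacts, had the largest rise at 1.32 ± 0.46 (SE, n = 2 per group, adjusted p = 0.0306), on only 6 and 20 counts in shCON and 37 and 34 counts in shZDHHC15. SCARB1, a lipoprotein receptor, rose from 612 and 601 counts to 1088 and 1040 counts, at 0.69 ± 0.11 (SE, n = 2 per group, adjusted p = 0.000188), and TMEM97 and SCP2 were called higher at 0.50 and 0.37. STARD3, which lies in the ERBB2 amplicon and binds cholesterol at endosomes, had the largest fall at -0.45 ± 0.09 (SE, n = 2 per group, adjusted p = 0.000766), with 59789 and 60203 counts in shCON and 44761 and 50932 counts in shZDHHC15. OSBPL1A was the other fall, at -0.31. The call was lost for GRAMD1C without shCON replicate 1 (0.61) or shZDHHC15 replicate 1 (1.21), its value being 2.46 without shCON replicate 2, for SCP2 without shCON replicate 1 (0.28) or shZDHHC15 replicate 1 (0.27), and for OSBPL1A without shCON replicate 1 (-0.31) or either shZDHHC15 sample (-0.24 and -0.39). OSBPL1A also lost it with library size only, DESeq2's Wald test, both other filters, the older dispersion method and glmTreat. For the 9 fatty acid genes under SREBP-1, set beside the sterol genes, 4 rose and 1 fell (44.4% and 11.1%), with a median of 0.22. SCD, the stearoyl-CoA desaturase, rose most, from 6310 and 5559 counts to 18564 and 15453 counts at 1.40 ± 0.11 (SE, n = 2 per group, adjusted p = 1.3e-07). ACACA, FASN and LPIN1 were the other rises, at 1.10, 0.92 and 0.75, and FADS2 fell by 0.73 on the log2 scale.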

How the data were processed

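RNA of 4 HCC1954 samples (2 shCON, 2 shZDHHC15) was sequenced from NEBNext Ultra libraries of total RNA. The authors deposited a table of raw read counts per gene, not normalized. The submitters' processing notes name HISAT2, SAMtools, StringTie and hg38; the counter, the annotation and the strand setting are not given in the sources used here. All 58735 identifiers matched GENCODE 29 on GRCh38 by start and end. Samples held 17560982 to 19118704 counts, with TMM factors of 0.962 to 1.03. Samples of a group differed by more than sampling noise (chi-square per degree of freedom 8.32 and 6.79).

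Groups came from the sample labels. The counts were fitted with edgeR 4.0.16 in R 4.3.3 (quasi-likelihood test, TMM factors, filterByExpr, no covariate), with Benjamini-Hochberg adjustment over 15817 genes and a threshold of 0.05. CPM used the effective library sizes, and levels between genes were divided by exon length. A permutation test of 2 against 2 samples cannot go below a p of 0.333, so none was made. Near copies were found with BLAST 2.17.0. The genes, lists and alternatives were chosen with earlier results of these data known. The 29 genes were all named. Of each other list the largest rise and fall past the threshold were named, with CH25H, NR1H2 and NR1H3. Further genes of these lists were named after their values were seen. Some single genes of these lists are not reported here by name. Floors and intervals cover counting error only. Promoter sequences came from RefSeq (GRCh38.p14); the 4 genes ACAT2, SQLE, FDFT1 and ABCG1 had no entry. Alternatives were 3 other scalings, DESeq2 1.42.0, 2 other filters, the older edgeR dispersion method, a replicate block, glmTreat at a fold of 1.2, and leaving out each sample.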

Additional observations from a re-analysis of the deposited data

How the results depend on the processing

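The counts of sterol genes called higher and lower stayed within 1.5 times the reported 13 and 3 under all 13 alternatives, and ran from 11 to 15 and from 3 to 4 when each sample was left out. PMVK, IDI1, SQLE, LSS, CYP51A1, LBR, MSMO1, HSD17B7, INSIG1, SREBF1, STARD4 and MYLIP were called in the same direction under all 13, and ABCA1 under the 12 that kept it, since a minimum of 10 counts in every sample removes it. ACAT2, FDPS and SREBF2 lost the call against a fold of 1.2 with glmTreat, and FDPS and SREBF2 also without shZDHHC15 replicate 1. HMGCS1, MVD, EBP, DHCR7 and MVK gained it under at least 1 alternative. The cause of these changes was not tested.

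The median of the 29 genes was 0.34 with library size only, which moved the median of all genes from 0.02 to 0.09, and 0.23 to 0.37 when each sample was left out. With library size only the list medians were 0.165 for SREBP processing, -0.0992 for the isoprenoid branches, 0.27 for sterol transport and 0.29 for the fatty acid genes. The SREBP processing median was 0.0782 with DESeq2 size factors, 0.0597 with upper-quartile factors, 0.0783 with the DESeq2 Wald test, 0.0727 with no filter on low counts and 0.102 with at least 10 counts in every sample. The sterol transport median was 0.16 with upper-quartile factors. Leaving out each sample gave ranges of 0.0511 to 0.0892 for SREBP processing and -0.234 to -0.110 for the isoprenoid branches. The ranges were 0.11 to 0.66 for the LXR list (the highest without shCON replicate 1) and 0.14 to 0.30 for the fatty acid genes. With either shCON sample left out, 8 genes of the LXR list were tested in place of 7, so those medians cover another set of genes.

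Over all 13 alternatives, rises and falls ran from 1 to 4 and 2 to 4 for SREBP processing (4 rises with library size only), 0 to 1 and 4 to 5 for the isoprenoid branches, 2 to 3 and 0 to 2 for the LXR list, 2 to 6 and 1 to 2 for sterol transport, and 4 to 5 and always 1 for the fatty acid genes.

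Sign changes were limited to genes that did not pass the test. With library size only TM7SF2 was 0.0120 and NSDHL 0.0556, and with upper-quartile factors INSIG2 was -0.000216. Leaving out each sample gave -0.0463 to 0.270 for GGPS1, -0.0624 to 0.00700 for NSDHL, -0.0916 to 0.149 for SC5D, -0.0617 to 0.0879 for INSIG2 and -0.74 to 0.37 for ABCG1. Over all genes 6644 were called, and 4157 with glmTreat. The numbers were not taken as pairs, because nothing in the labels says what same-numbered samples share. Deviations of same-numbered samples from their group means had a correlation of r = 0.03 over 15817 genes. With 2 samples per group both pairs give the same value, so it cannot settle the pairing. With the replicate block 15 sterol genes were higher and 4 lower, and 7225 of all genes were called. With 9 to 18 counts in ABCG1 and 0 to 10 in the untested oxysterol genes, depth limits what could be seen there.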
